A study of Mus musculus with 12 samples.

Results

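B16F10 mouse melanoma cells that received 5-aza-2'-deoxycytidine (DAC) and sulforaphane (SFN) together were compared to cells that received the vehicle. The members are the 6 libraries that the sample labels place in these groups, DAC+SFN replicates 1 to 3 and control replicates 1 to 3, out of 12 libraries in the series. The combination treatment was 25 nM DAC for 72 h, with 5 µM SFN present during the last 48 h after a change of medium, and the control received dimethyl sulfoxide (DMSO). The other 6 libraries came from DAC single treatment for 72 h and SFN single treatment for 48 h, and they entered the same statistical model. The labels put SFN at 5 nM for the single treatment and at 5 µM for the combination, while the study's methods describe a single SFN dose and the same handling for single and combined treatment. The lower dose may therefore be an error in the label, and whether the SFN dose differed between these groups was not settled here. B16F10 is 1 established line, so all groups share its genetic background, and the labels describe the replicates as independent biological repeats. The question was which transcripts differ when an inhibitor of DNA methylation and an isothiocyanate are given together.

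DAC is a cytidine analog that is built into DNA, where it traps DNA methyltransferases, so that methylation is lost over rounds of replication. SFN, an isothiocyanate from cruciferous vegetables, modifies cysteines of KEAP1, the protein that sends the transcription factor NRF2 to the proteasome. NRF2 then binds antioxidant response elements near genes for glutathione synthesis, quinone reduction and conjugation of toxic compounds, while loss of DNA methylation is known to derepress germline genes and, in many cancer lines, interferon-stimulated genes.

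Between 19310971 and 23654567 reads were counted on genes in control and between 20750610 and 22195004 with the combination treatment. Expression is given in TMM-normalized CPM (reads of a gene scaled to library size), in the order of replicates 1, 2 and 3. Of 24421 genes in the files, 11638 reached 1 CPM in 3 or more libraries and entered the quasi-likelihood F-test of edgeR, with the replicate number as a block. Genes passed when the p-value adjusted by Benjamini and Hochberg was under 0.05, and those that also exceeded a fold of 2 were called. The 10 melanocyte markers (Mitf, Sox10, Tyr, Tyrp1, Dct, Pmel, Mlana, Slc45a2, Gpr143 and Mc1r) were all tested, and their summed level was 25542 to 31449 CPM in control and 22364 to 29706 CPM with the combination treatment, so the label of a melanoma line held in both groups. Of 12 immune cell markers, 4 had no count in any of the 6 libraries, among them Cd4, Adgre1 and Nkg7, and the sum of the 12 was 4.98 to 6.05 CPM in control and 11.8 to 16.5 CPM with the combination treatment. Cd68, a lysosomal protein of macrophages that other cells also make, was at 2.94, 4.78 and 2.31 CPM in control and 9.61, 11.2 and 8.27 CPM with the combination, and lysozyme, Lyz2, at 1.15, 1.16 and 2.62 CPM and 2.37, 5.12 and 2.57 CPM. These were the only immune markers at a level to be tested. The 7 endothelial markers summed to 0.184 to 0.259 CPM in control and 0.451 to 0.846 CPM with the combination, the 8 epithelial markers, of which 5 had no count, to 0.592 to 1.61 CPM and 0.611 to 1.26 CPM, and the 8 fibroblast markers to 29.4 to 336 CPM and 40.6 to 273 CPM. The part of these low-level markers in the results below was not tested. In bulk RNA, fewer cells of a type and less RNA per cell cannot be told apart.

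Most genes that changed by more than a fold of 2 with the combination treatment rose. Of the 11638 genes tested, 310 were called (2.66%), of which 271 were higher (2.33%) and 39 lower (0.335%) than in control. With the adjusted p-value alone, 3683 genes passed (31.6%), 1978 upward (17.0%) and 1705 downward (14.7%), so rises were 271 of 310 among genes past a fold of 2 and 1978 of 3683 without that limit. The 271 genes called up held 0.378%, 0.564% and 0.478% of all counts in control and 1.01%, 1.45% and 0.905% with the combination. All 3 combination libraries lay above all 3 control libraries for 226 of the 271 genes called up, where this held for 15.1% of all genes tested. For 20 of the 39 genes called down, all 3 combination libraries lay below the controls, against 14.3% of all genes tested. In the pairs of equal replicate number, 269 of the 271 and 35 of the 39 moved the same way 3 times, against 54.0% of all genes tested. The genes were called from the same libraries with the replicate block, so the selection favours such counts and they are no separate support. The same holds for the separation of groups given below for named genes, most of which were picked by adjusted p-value or size of change. The calls were weighted towards genes near silence in control. Of 330 genes with a control mean under 1 CPM, 28.18% were called up, and of 2375 genes over 100 CPM, 0.42%. Genes under 1 CPM in control were tested only because other libraries reached that level, so nothing is read from the high share of rises among them. Without the replicate block, 169 genes were called and 1201 passed at the adjusted p-value alone.

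**Figure D1:**
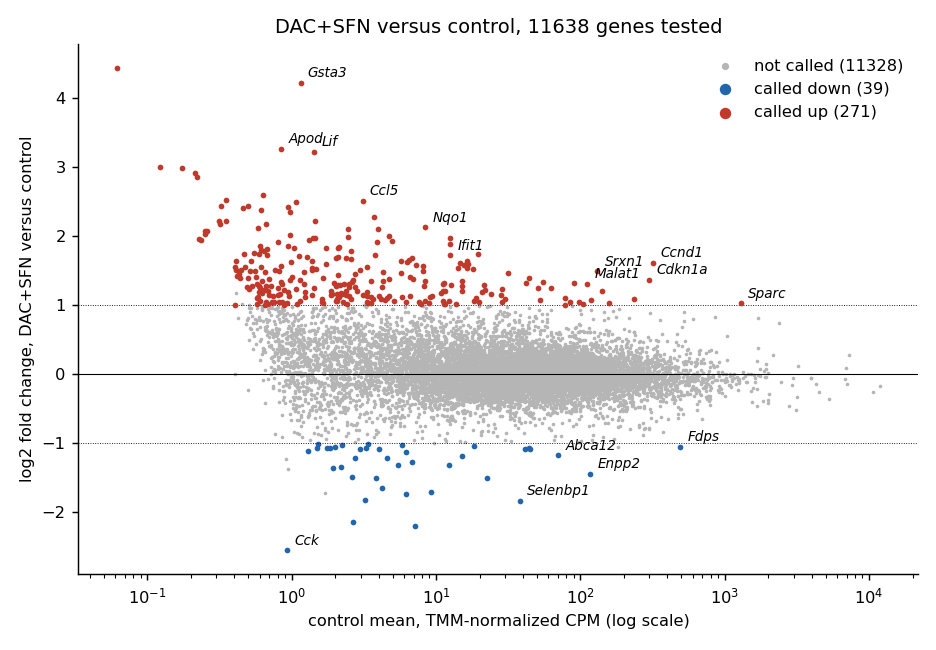
The log2 fold change of DAC+SFN versus control (vertical axis) is plotted against the control mean in TMM-normalized CPM (horizontal log axis) for the 11638 genes tested, each point 1 gene. The 271 genes called up (red) are mostly at low control levels and are few above 100 CPM, and Gsta3 stands at 4.22. The 39 genes called down (blue) include Fdps at a control mean above 100 CPM. Dotted lines mark a fold of 2.

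Many genes of xenobiotic and redox metabolism rose, Gsta3 most among those with more than 3 counts in each control library. Gsta3, a glutathione S-transferase that also acts in steroid metabolism, was at 1.47, 1.16 and 0.822 CPM in control and at 21.8, 27.6 and 15.2 CPM with the combination treatment. The 2 groups were far apart, and the log2 fold change of 4.22 ± 0.24 (SE, n = 3, adjusted p = 2.11e-07) was exceeded only by that of Aldh3a1, described below with its counts. Nqo1, which reduces quinones by 2 electrons and is a standard readout of NRF2, went from 7.45, 8.78 and 9.04 to 38.6, 33.5 and 38.4 CPM, a log2 fold change of 2.12 ± 0.14 (adjusted p = 3.19e-07). Its 3 values with the combination lay within a narrow band well above the narrow band of control. Srxn1, sulfiredoxin, which repairs over-oxidized peroxiredoxins, rose from 111, 166 and 115 to 381, 487 and 252 CPM (log2 fold change 1.49 ± 0.13, adjusted p = 2.44e-06). Replicate 2 was the highest of each group, and the groups did not overlap.

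By role, 5 of 35 tested genes of the glutathione and thioredoxin systems were called up and none down, and 21 passed at the adjusted p-value upward and 4 downward. Their median log2 fold change was 0.27, against 0.01 over all genes tested. The cystine carrier Slc7a11, which brings in the precursor of glutathione, rose from 103, 79.6 and 87.5 to 235, 258 and 186 CPM, and Gclm, the modifier subunit of glutamate-cysteine ligase, from 58.8, 68.1 and 59.8 to 161, 178 and 111 CPM. Ggt1, which breaks down extracellular glutathione for uptake, rose from 10.3, 15.1 and 12.02 to 47.2, 67.6 and 27.8 CPM. All 3 genes were higher in each combination library than in any control library, with log2 fold changes of 1.32 ± 0.16, 1.25 ± 0.10 and 1.88 ± 0.17. Other members of the glutathione S-transferase families share sequence with Gsta3, and since the authors kept uniquely aligned reads, counts among close copies are uncertain.

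Among 32 tested genes for quinone, heme, carbonyl and NADPH metabolism, 8 were called up (Nqo1, Aldh1a3, Adh7, Trim16, Ces2e, Blvrb, Aldh3a1 and Xdh), none down, and 18 passed upward and 4 downward, with a median of 0.34. Aldh1a3, a retinaldehyde dehydrogenase, went from 6.302, 6.93 and 5.65 to 20.3, 24.8 and 13.9 CPM and Adh7, an alcohol dehydrogenase active on retinol, from 12.2, 24.7 and 13.3 to 47.02, 69.7 and 33.6 CPM. Their log2 fold changes were 1.62 ± 0.13 and 1.60 ± 0.14, and neither gene had overlapping groups. Trim16, a ubiquitin ligase linked to the handling of damaged proteins and membranes, rose from 1.06, 1.46 and 1.85 to 4.92, 10.3 and 5.42 CPM, and Ephx1, the microsomal epoxide hydrolase, from 305, 328 and 279 to 597, 647 and 449.6 CPM without reaching a fold of 2 (log2 fold change 0.88 ± 0.07). Aldh3a1, an aldehyde dehydrogenase of cornea and stomach that was singled out after its values were seen, had 1, 2 and 1 counts in control, so its values of 0.046000, 0.08605 and 0.0514 and 1.502, 0.383 and 2.71 CPM are given with no fold. Without the replicate block, 10 genes of the glutathione list and 12 of the quinone list passed upward.

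The regulators of the same pathway moved little. Of 11 tested regulators of NRF2, none was called, 3 passed upward and 1 downward (none without the replicate block), and the median was 0.11. Sqstm1, which encodes the autophagy receptor p62 and binds KEAP1, was higher at 1473, 1917 and 1165 against 858, 1254 and 975 CPM (log2 fold change 0.55 ± 0.09, adjusted p = 0.00058), and the groups overlapped. The partner factors Mafk and Maff had log2 fold changes of 0.49 ± 0.10 and 0.78 ± 0.26. Nfe2l2, the gene of NRF2 itself, was slightly lower, at 139, 144 and 149 against 158, 193 and 153 CPM (log2 fold change -0.22 ± 0.07, adjusted p = 0.026), and its adjusted p was 0.122 without the block and 0.199 without control replicate 2.

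**Figure D2:**
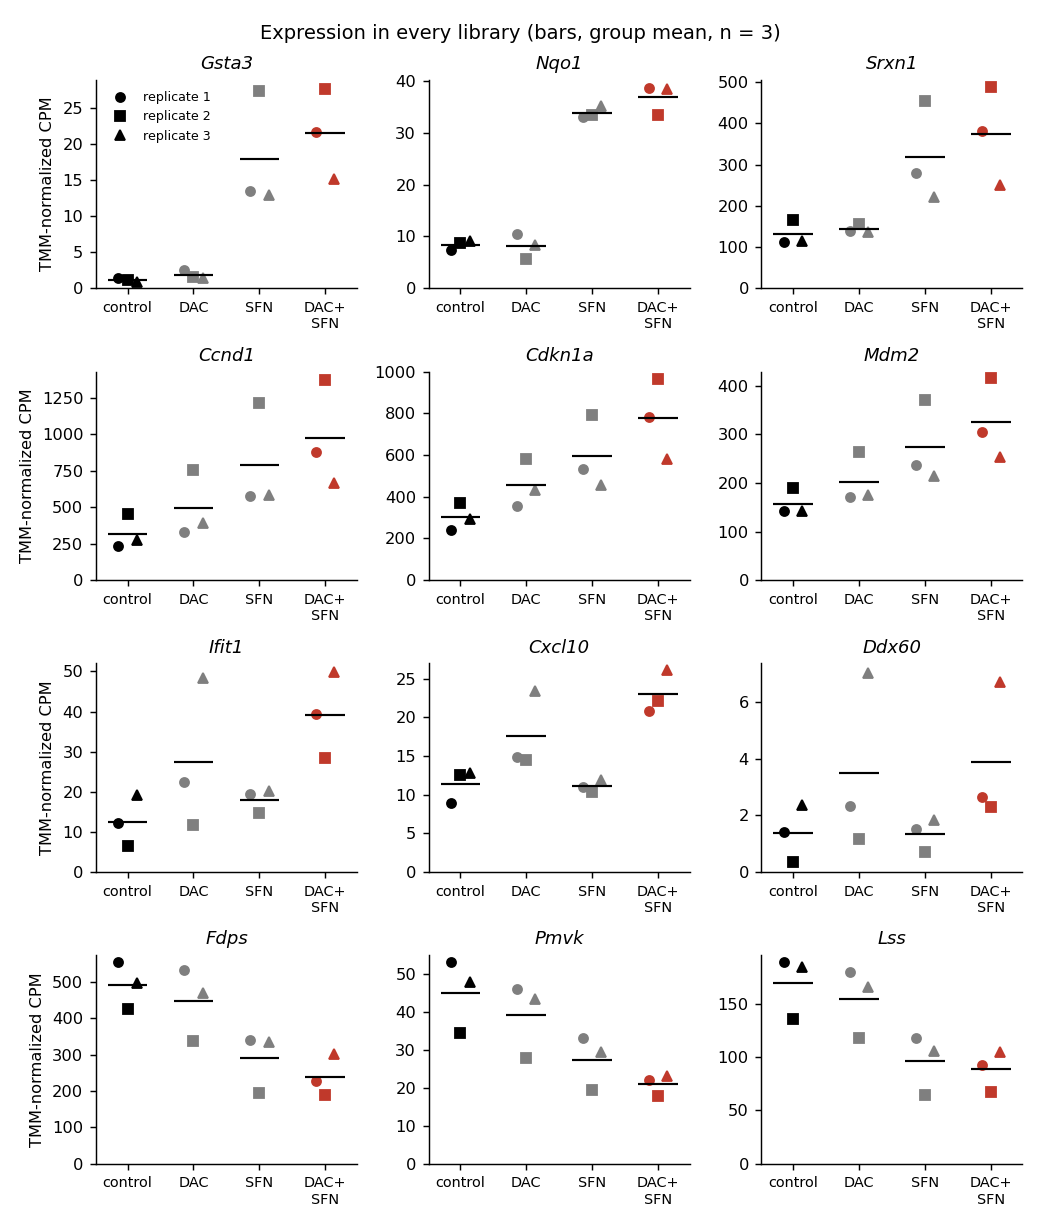
Each panel plots the TMM-normalized CPM (vertical axis, from 0) of a gene in all 12 libraries, by group, with a symbol for each replicate number and a bar for the group mean of n = 3. Gsta3, Nqo1 and Srxn1 are high in both groups that received SFN, Ifit1 and Ddx60 reach their highest values in replicate 3 of DAC and of DAC+SFN, and Fdps, Pmvk and Lss are low in both groups that received SFN.

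Promoters of 2 called detoxification or cytokine genes are shown because they carry the core of the antioxidant response element, searched as TGACNNNGC on both strands, and were the called genes with the smallest adjusted p-values among those that do. Each sequence is from RefSeq (GRCm38.p6) and ends at the base before the outermost annotated start of the gene, 5′ to 3′ along the gene, with the match in capitals. It is 230 bases long for Gsta3 and 250 bases long for the others.
Gsta3, chr1:21240335-21240564, plus strand: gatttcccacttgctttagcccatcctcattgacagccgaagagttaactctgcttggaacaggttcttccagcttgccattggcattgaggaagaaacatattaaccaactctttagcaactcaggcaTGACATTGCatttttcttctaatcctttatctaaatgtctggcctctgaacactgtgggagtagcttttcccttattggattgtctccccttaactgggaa
Lif, chr11:4257318-4257567, plus strand: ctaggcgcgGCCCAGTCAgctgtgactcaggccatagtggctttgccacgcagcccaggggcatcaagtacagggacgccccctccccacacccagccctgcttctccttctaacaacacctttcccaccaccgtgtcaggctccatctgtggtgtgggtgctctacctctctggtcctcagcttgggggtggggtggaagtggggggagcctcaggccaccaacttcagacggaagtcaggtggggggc
In Gsta3 the match began 101 bases before the start, and in Lif it began 241 bases before it and lay on the opposite strand. A match is a run of letters and not a shown binding site. Of the 163 genes called up with a single promoter entry, 22.7% held this core in the 300 bases from 250 before to 50 after the start in the promoter table, against 14.74% of 7477 tested genes. At the adjusted p-value alone, 14.94% of 1245 genes passing upward and 17.71% of 1107 passing downward held it.

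Targets of p53 rose as a group. Of 28 tested, 6 were called up (Plk2, Mdm2, Tnfrsf10b, Cdkn1a, Btg2 and Eda2r), none was called down, and 22 passed upward and none downward, with a median of 0.62. Cdkn1a, which encodes the CDK inhibitor p21, was at 239.9, 372 and 291 CPM in control and 784, 964 and 579 CPM with the combination treatment (log2 fold change 1.36 ± 0.11, adjusted p = 1.91e-06). Mdm2, the ubiquitin ligase that degrades p53, rose from 142, 189 and 142 to 305, 416 and 253 CPM (log2 fold change 1.03 ± 0.07, adjusted p = 5.01e-07). In both genes, every combination library was above every control library and replicate 2 was the highest of each group. Plk2, a kinase of the centrosome cycle, went from 24.4, 34.2 and 27.7 to 61.96, 81.4 and 57.9 CPM and Btg2, an antiproliferative cofactor of mRNA deadenylation, from 10.5, 18.03 and 20.4 to 46.02, 49.2 and 41.5 CPM. Tnfrsf10b, a death receptor for TRAIL, went from 26.8, 35.5 and 23.4 to 60.1, 66.6 and 47.5 CPM. None of these 3 overlapped, and their log2 fold changes were 1.22 ± 0.08, 1.53 ± 0.15 and 1.03 ± 0.08. Trp53inp1, which promotes p53 phosphorylation, stopped just short of a fold of 2 (log2 fold change 0.94 ± 0.06), at 184, 177 and 196 against 357, 325 and 389 CPM, with an adjusted p of 2.55e-07. Without the replicate block, 17 of the 28 passed upward.

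Among 23 BCL2 family and caspase genes, none was called, 6 passed upward and 4 downward, and the median was 0.01. The 6 and 4 were 26.09% and 17.39% of the list, against 17.0% and 14.7% of all genes tested. The antiapoptotic Bcl2l1, which encodes BCL-XL, was higher at 121, 159 and 85.1 against 53.2, 76.5 and 58.96 CPM (log2 fold change 0.93 ± 0.10). Cflar, an inhibitor of caspase-8 activation, was higher by 0.46 ± 0.08, and Casp2, an initiator caspase, was lower, with a log2 fold change of -0.43 ± 0.08. With all libraries of replicate 1 left out, the adjusted p of Casp2 was 0.0539.

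The D-type cyclin genes Ccnd1 and Ccnd2 rose, while genes of DNA replication and mitosis fell by small amounts. Ccnd1, which encodes cyclin D1, was at 233, 452 and 273 CPM in control and 879.8, 1375 and 667 CPM with the combination treatment (log2 fold change 1.61 ± 0.10, adjusted p = 2.55e-07). Ccnd2 went from 817, 955 and 818 to 1599, 1649 and 1333 CPM (log2 fold change 0.82 ± 0.07), below a fold of 2. Neither cyclin gene had overlapping groups. Of 27 tested cyclins, CDKs and inhibitors, Ccnd1 and Cdkn1a were called up, none was called down, and 6 passed upward and 14 downward, with a median of -0.19. Without the block, 3 passed upward and 9 downward. Cdc25b, a phosphatase that activates CDK1, was lower at 68.9, 60.3 and 67.9 against 116, 84.6 and 102 CPM (log2 fold change -0.61 ± 0.06).

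All 39 DNA replication genes had a log2 fold change below 0, from -0.83 to -0.17, with a median of -0.31, and 35 passed downward, none with a fold above 2. Cdc45, part of the replicative helicase, fell from 74.9, 87.3 and 75.1 to 50.9, 56.9 and 53.7 CPM (log2 fold change -0.55 ± 0.07, adjusted p = 6.48e-05). The helicase subunit Mcm7 fell from 231, 264 and 219 to 160.1, 182 and 166 CPM and the clamp loader subunit Rfc3 from 56.8, 57.95 and 50.8 to 37.97, 39.2 and 40.5 CPM. In all 3 genes the combination libraries lay below every control library. Of 42 mitosis and spindle checkpoint genes, 34 passed downward and none upward, with a median of -0.34. Birc5, which encodes survivin of the chromosomal passenger complex, fell from 156, 163 and 154 to 99.4, 112 and 123 CPM (log2 fold change -0.50 ± 0.07) and Aurkb, the kinase of that complex, from 138, 139 and 129.9 to 95.6, 102 and 106 CPM (-0.42 ± 0.06). Cdca8 and Cenpa, of the same complex and of centromeric chromatin, both fell by 0.44 on the log2 scale. The groups did not overlap for any of these 4 genes. The counts depended on the fit. Without the replicate block 21 replication and 21 mitosis genes passed, and 16 and 14 passed when all libraries of replicate 1 were left out. With control replicate 2 alone left out, 25 and 27 passed.

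Some of the interferon-stimulated genes also rose, at low levels and with wide differences between replicates. Of 50 tested, 8 were called up (Ifit1, Ddx60, Ifit3b, Ifit3, Isg15, Oasl1, Oasl2 and Mx2), none down, and 23 passed upward and none downward, with a median of 0.48. Ifit1, whose protein binds viral RNA that lacks cap methylation, was at 12.1, 6.37 and 19.21 CPM in control and 39.4, 28.4 and 49.8 CPM with the combination treatment (log2 fold change 1.72 ± 0.21, adjusted p = 4.12e-05). Replicate 3 was the highest and replicate 2 the lowest in each group, without overlap. Isg15, a ubiquitin-like modifier, was at 6.85, 3.61 and 17.6 CPM and 15.9, 11.7 and 28.6 CPM (log2 fold change 1.13 ± 0.25, adjusted p = 0.00333). Here the groups overlapped, since control replicate 3 was above 2 of the combination libraries, and without the block the adjusted p was 0.304. Ddx60, a helicase that supports RNA sensing, was at 1.43, 0.344 and 2.36 CPM and 2.64, 2.299 and 6.72 CPM (log2 fold change 1.54 ± 0.30). Its control replicate 3 value reached just above the lowest combination value. Ifitm3, a membrane protein that blocks virus entry, rose from 49.8, 40.96 and 64.9 to 98.6, 79.3 and 117 CPM without overlap (log2 fold change 0.93 ± 0.13). Ifit3 and Ifit3b, and Oasl1 and Oasl2, are close copies whose counts could be split. The count for the whole list was unstable. Without the block, 3 of the 50 passed upward, and 7, 11 or 29 passed when all libraries of replicate 1, 2 or 3 were left out. With control replicate 1 alone left out, 14 passed. Within the 3 replicate pairs the list median was 0.40, 0.74 and 0.32.

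The promoters of Ifit1 and Isg15 are shown because the core of the interferon-stimulated response element, GAAANNGAA on either strand, was frequent among the list. These 2 genes were picked for printing after their values were seen.
Ifit1, chr19:34640639-34640888, plus strand: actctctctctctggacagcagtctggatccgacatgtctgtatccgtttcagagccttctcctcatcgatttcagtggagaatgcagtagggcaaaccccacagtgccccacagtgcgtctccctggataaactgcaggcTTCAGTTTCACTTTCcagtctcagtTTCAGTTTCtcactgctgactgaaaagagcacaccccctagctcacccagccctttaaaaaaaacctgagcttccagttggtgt
Isg15, chr4:156200819-156201068, minus strand: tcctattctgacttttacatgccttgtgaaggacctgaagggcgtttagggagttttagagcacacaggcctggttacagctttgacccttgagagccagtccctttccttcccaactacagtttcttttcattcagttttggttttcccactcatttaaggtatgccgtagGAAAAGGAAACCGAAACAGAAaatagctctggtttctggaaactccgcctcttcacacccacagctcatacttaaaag
Ifit1 held 3 matches between 109 and 84 bases before its start, and Isg15 held 3 overlapping matches between 78 and 66 bases before its start. Of 34 tested interferon-stimulated genes with a single promoter entry, 23 (67.65%) held the core, against 6.82% of 7477 tested genes and 12.27% of 163 genes called up. The called genes with the smallest adjusted p-values that held a match were Plk2, 218 bases before the start, and Jag1, 72 bases before it.

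Genes of antigen presentation passed in both directions, at shares not far from those of all genes tested (17.0% upward and 14.7% downward). Of 19 tested, H2-DMa, Tap1 and Nlrc5 were called up and H2-K1 was called down, 5 passed upward and 4 downward (2 and 1 without the block), and the median was 0.10. Tap1, a subunit of the peptide transporter, rose from 6.16, 8.09 and 10.7 to 17.5, 16.9 and 16.95 CPM (log2 fold change 1.06 ± 0.19), and Nlrc5, a transactivator of MHC class I genes, from 0.874, 0.645 and 1.9003 to 2.23, 2.54 and 3.78 CPM (1.36 ± 0.28). H2-DMa, a chaperone of class II loading, was at 0.552, 0.688 and 0.7704 CPM in control, under the level for testing, and 2.09, 2.87 and 1.63 CPM with the combination. None of these 3 had overlapping groups. H2-K1, a class I heavy chain, was at 50.97, 14.1 and 59.2 CPM in control and 14.1, 12.98 and 25.4 CPM with the combination treatment (log2 fold change -1.10 ± 0.24, adjusted p = 0.00324). Control replicate 2 was within the range of the combination libraries. The adjusted p was 0.175 without the block and 0.0837 with the libraries of replicate 1 left out. Class I genes are close copies, so their counts are uncertain.

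Many of the cytokine and growth factor genes tested rose from low levels. Members near silence in control were tested only if other libraries reached 1 CPM, so nothing is read from the share of rises. Of 46 cytokines and chemokines listed, 14 were tested, and 6 were called up (Lif, Ccl5, Il33, Cxcl10, Clcf1 and Cx3cl1) with none down. At the adjusted p-value alone, 8 passed upward (5 without the block), and the median was 0.82. Lif, a cytokine of the interleukin-6 family, went from 0.782, 2.32 and 1.18 to 9.56, 23.6 and 7.14 CPM (log2 fold change 3.22 ± 0.19, adjusted p = 2.11e-07). Ccl5, a chemokine for T cells, went from 2.99, 2.15 and 4.16 to 21.2, 14.9 and 16.2 CPM (log2 fold change 2.51 ± 0.21, adjusted p = 2.08e-06). Both were higher in each combination library than in any control library, with replicate 2 highest for Lif and replicate 1 for Ccl5. Cxcl10, a chemokine induced by interferon, went from 8.92, 12.5 and 12.7 to 20.8, 22.1 and 26.1 CPM and Il33, an alarmin of the interleukin-1 family, from 4.37, 4.26 and 2.72 to 11.6, 18.7 and 8.17 CPM. The log2 fold changes were 1.01 ± 0.13 and 1.72 ± 0.17, without overlap of groups.

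Of 50 growth and angiogenic factors listed, 27 were tested, and 9 were called up and none down. At the adjusted p-value alone, 16 passed upward and 1 downward, with a median of 0.74. Without the block 10 passed upward. Nppb, the precursor of brain natriuretic peptide, went from 9.38, 23.9 and 15.9 to 40.7, 78.97 and 33.01 CPM and the platelet-derived growth factor Pdgfa from 6.58, 10.2 and 8.27 to 18.03, 31.8 and 15.3 CPM. Angpt2, an antagonist ligand of the endothelial receptor TIE2, rose by a log2 fold change of 0.85 ± 0.09 and Fgf1 by 0.70 ± 0.09. In none of these 4 did the groups overlap, which the choice of members by small adjusted p-values favours. Genes of feedback and early response to ERK signalling showed a like pattern, with 6 of 31 called up (Etv5, Spry4, Id1, Etv1, Etv4 and Dusp15), none down, and 19 passing upward and 2 downward. The ETS factor Etv5 went from 17.2, 23.8 and 17.2 to 65.7, 81.1 and 47.2 CPM (log2 fold change 1.73 ± 0.14, adjusted p = 1.51e-06). Spry4, an inhibitor of receptor tyrosine kinase signalling, went from 5.15, 6.32 and 5.55 to 18.3, 22.1 and 12.98 CPM and Id1, an inhibitor of bHLH factors, from 1.79, 2.67 and 2.93 to 10.5, 13.1 and 5.88 CPM. All 3 separated the groups, with the lowest combination value in replicate 3 each time. The list median was 0.61, and leaving out the libraries of replicate 1 or of replicate 2 lowered it to 0.36 and the genes passing upward to 12, and 11 passed upward without the block.

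**Figure D3:**
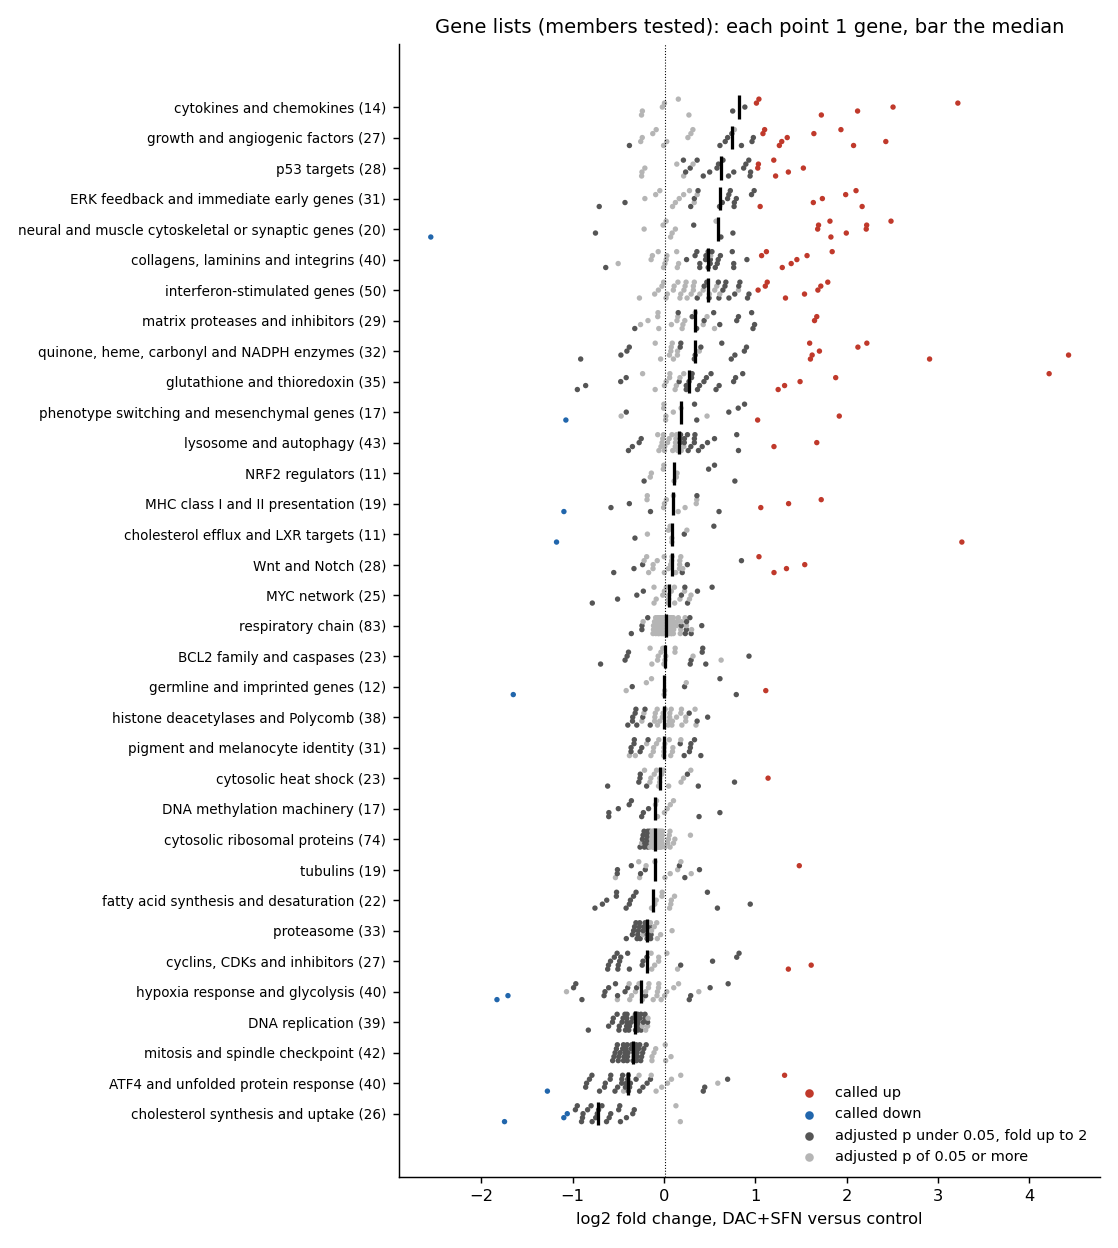
Each row is a gene list with the number of members tested in brackets, each point the log2 fold change of DAC+SFN versus control (horizontal axis) of 1 member, and each bar the list median. The dotted line marks the median of all genes tested (0.01). Cytokines, growth factors and p53 targets have the highest medians (0.82, 0.74 and 0.62), and cholesterol synthesis has the lowest (-0.72). Only 14 of 46 cytokines and 27 of 50 growth factors listed were tested. Members near silence in control entered only through other libraries, so the medians of both lists are not read against fully tested lists.

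Many collagens, laminins and integrins were higher, and a smaller share of the matrix proteases and inhibitors. Of 40 tested collagens, laminins and integrins, 7 were called up, none down, and 27 passed upward and 1 downward, with a median of 0.48. Without the block 13 passed upward. Col7a1, the anchoring fibril collagen, went from 1.33, 2.495 and 2.57 to 6.51, 11.3 and 5.28 CPM (log2 fold change 1.84 ± 0.25) and Col4a5, of basement membranes, from 33.5, 38.2 and 40.7 to 56.4, 75.3 and 58.1 CPM (0.75 ± 0.10). The integrin subunit Itgav rose from 173, 167 and 180.5 to 229.6, 246 and 254 CPM. These 3 did not overlap between groups. Of 29 matrix proteases and inhibitors, Ctsh and Mmp15 were called up and none was called down, 13 passed upward and 1 downward (6 and 0 without the block), and the median was 0.34. Ctsh, a lysosomal cathepsin, went from 6.95, 7.27 and 6.27 to 20.8, 30.03 and 15.8 CPM (log2 fold change 1.67 ± 0.13) and the membrane-type metalloprotease Mmp15 from 4.92, 9.03 and 5.65 to 23.7, 25.5 and 12.1 CPM (1.65 ± 0.20). Sparc, a matricellular protein, was the called gene at the highest level, at 999, 1649 and 1227 CPM in control and 2199, 3786 and 2053 CPM with the combination treatment (log2 fold change 1.03 ± 0.09, adjusted p = 2.95e-06). Its groups did not overlap, and without the block the adjusted p was 0.0677. Among 17 tested genes of phenotype switching, 2 were called up, Sparc among them, and Loxl2 was called down, and 7 passed upward and 2 downward (none without the block), with a median of 0.19. Loxl2, a lysyl oxidase, was at 58.01, 8.78 and 65.6 CPM in control and 11.4, 16.2 and 24.6 CPM with the combination (log2 fold change -1.07 ± 0.37), with control replicate 2 below all combination libraries and an adjusted p of 0.193 in DESeq2's Wald test.

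Genes of cholesterol synthesis fell as a group. Of 26 tested, 24 passed downward and none upward, 3 were called down, Pmvk and Fdps among them, and none up, and the median was -0.72. Fdps, farnesyl diphosphate synthase, was at 556, 425 and 498 CPM in control and 229, 188 and 301 CPM with the combination treatment (log2 fold change -1.06 ± 0.10, adjusted p = 7.69e-06). Pmvk, phosphomevalonate kinase, was at 53.2, 34.3 and 47.8 CPM and 21.9, 17.8 and 23.02 CPM (log2 fold change -1.10 ± 0.09, adjusted p = 1.48e-06). In both genes of the mevalonate arm, every combination library was below every control library. Lss, which cyclizes squalene epoxide to lanosterol, fell from 189, 136 and 185 to 93.002, 67.6 and 105 CPM and Insig1, the sterol-sensing anchor of SREBP processing, from 312, 208 and 290.02 to 161, 100.3 and 184 CPM. The log2 fold changes were -0.95 ± 0.08 and -0.89 ± 0.08, and neither gene had overlapping groups. The count was 24 with both groups alone in the model and 23 to 24 with any replicate number left out, and 9 without the block. Of 22 fatty acid synthesis and desaturation genes, none was called, 10 passed downward and 3 upward (4 and 2 without the block), and the median was -0.12. The desaturases Scd1 and Scd2 fell by 0.63 and 0.52 on the log2 scale (SE 0.07 and 0.06) and Fads1 and Fads2 by 0.67 and 0.52 (SE 0.07 in both). Among 11 genes of sterol efflux and LXR targets, Apod, a lipocalin that binds arachidonate and steroids, was called up, from 0.828, 0.731 and 0.976 to 9.51, 9.77 and 5.28 CPM (log2 fold change 3.26 ± 0.27), and in control it was under the level for testing. The list had 3 genes passing upward and 2 downward (1 and 0 without the block), and a median of 0.09. Abca12, a lipid transporter of keratinocytes, was called down, from 102, 34.1 and 75.4 to 52.6, 11.6 and 33.8 CPM, and the groups overlapped because replicate 2 was the lowest in both.

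Genes of the integrated stress response fell, and proteasome genes fell by less. Of 40 tested genes of ATF4 and the unfolded protein response, 27 passed downward and 4 upward, with a median of -0.39, and 1 was called in each direction, Slc7a11 up and Vldlr down. Atf4, the transcription factor of the integrated stress response, fell from 545, 492 and 507 to 382, 295 and 360.1 CPM (log2 fold change -0.58 ± 0.06, adjusted p = 7.04e-06). Its targets Trib3, a pseudokinase, and Shmt2, the mitochondrial serine hydroxymethyltransferase, fell from 68.6, 51.2 and 61.6 to 37.01, 29.98 and 37.9 CPM and from 399, 433 and 372 to 266, 254 and 247 CPM. Herpud1, of endoplasmic reticulum degradation, fell from 162, 158 and 128 to 97.1, 91.5 and 85.4 CPM. No combination library of these 4 genes reached the control range. Of 33 proteasome subunits, 23 passed downward and none upward, none was called, and the median was -0.18. Psma1, Psmc2 and Psmc3 fell by 0.41, 0.35 and 0.32 on the log2 scale. That count was 9 without the block and 10 with control replicate 2 left out. Among 23 cytosolic heat shock genes, Hspb1 was called up from 0.92000, 1.205 and 2.003 to 1.73, 4.597 and 2.895 CPM with overlapping groups, and 4 passed upward and 5 downward (0 and 3 without the block, 2 and 0 without the libraries of replicate 1), with a median of -0.05. The 4 and 5 were 17.39% and 21.74% of the list, against 17.0% and 14.7% of all genes tested. Of 43 lysosome and autophagy genes, Ctsh and Ctsf were called up, 19 passed upward and 4 downward (10 and 0 without the block), and the median was 0.17. The protease genes Ctsd and Ctsb were among the most abundant, at 1719.7, 1846 and 1562 CPM in control and 3366, 3323 and 2404 CPM with the combination for Ctsd, and at 534, 756 and 510.4 CPM and 996, 1333 and 810.4 CPM for Ctsb. Both separated the groups, with log2 fold changes of 0.82 ± 0.07 and 0.80 ± 0.06.

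Hypoxia and glycolysis genes depended on the replicate. Of 40 tested, Mgarp and Ankrd37 were called down and none up, 14 passed downward and 4 upward, and the median was -0.25. The median within pairs was -0.62 in replicate 1, 0.28 in replicate 2 and -0.48 in replicate 3. Ankrd37, a target of HIF1, was at 3.91, 0.817 and 4.98 CPM in control and 0.774, 0.766 and 0.981 CPM with the combination treatment. Control replicate 2 stood at the level of the combination libraries while control replicates 1 and 3 were high. Mgarp, a mitochondrial protein also induced by HIF1, was at 11.4, 2.24 and 14.3 CPM and 2.504, 1.48 and 3.92 CPM, and control replicate 2 was again the lowest control. Ndrg1, a stress and hypoxia response gene, was at 91.3, 51.3 and 79.1 CPM and 41.8, 31.8 and 43.2 CPM, and its groups did not overlap (log2 fold change -0.90 ± 0.08). With all libraries of replicate 2 left out, 26 genes passed downward and 1 upward and the median was -0.58. With those of replicate 1 left out, 4 passed downward and the median was -0.08. Without the block, 2 passed downward and 1 upward. Among genes outside the lists, the called falls of Selenbp1, which oxidizes methanethiol, and Kbtbd11 also had their lowest control value in replicate 2. Selenbp1 was at 44.4, 12.6 and 57.7 CPM in control and 7.51, 8.14 and 12.98 CPM with the combination, and Kbtbd11 at 32.3, 4.09 and 30.7 CPM and 5.599, 3.93 and 11.3 CPM.

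**Figure D4:**
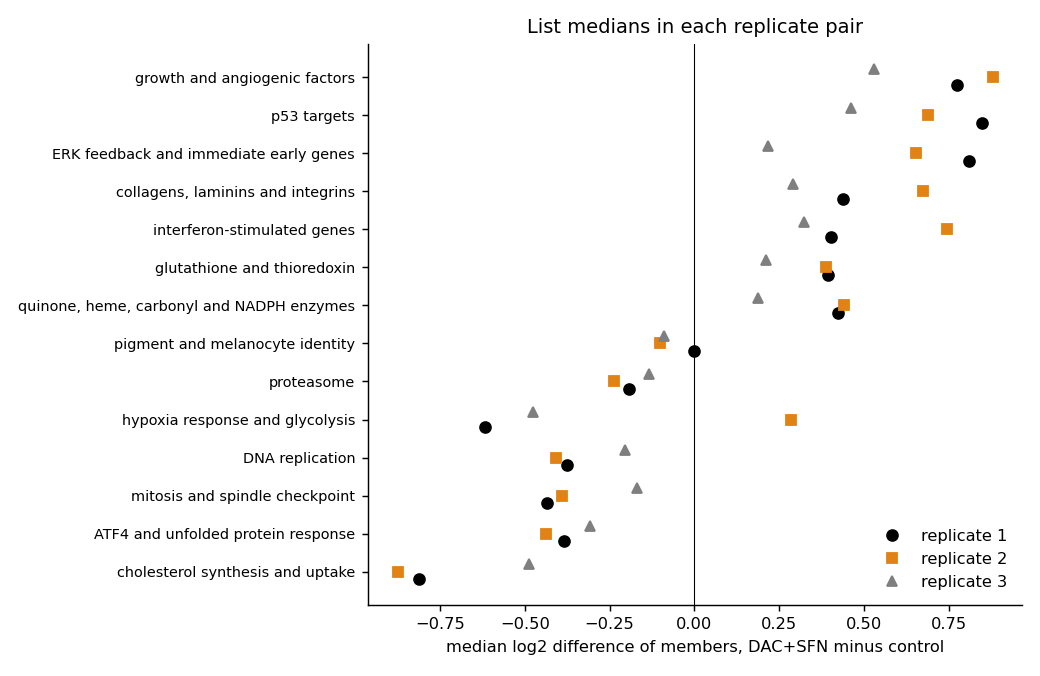
The median log2 difference of list members, DAC+SFN minus control (horizontal axis), is drawn for each replicate pair (symbols) and 14 lists (rows). In 12 lists all 3 pairs lie on the same side of 0, with replicate 3 nearest to it. The hypoxia list has replicate 2 at 0.28 and the other pairs at -0.62 and -0.48, and the pigment list lies near 0.

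Pigment genes changed by small amounts. Of 31 pigment and melanocyte genes, none was called, 7 passed upward and 7 downward (0 and 1 without the block), the median was 0.00, and the log2 fold changes ran from -0.38 to 0.40. The 7 in each direction were 22.58% of the list, against 17.0% upward and 14.7% downward of all genes tested. Mlph, which links melanosomes to myosin, was higher at 803, 704 and 522 against 494, 569 and 458 CPM, and Slc24a5, a melanosomal ion exchanger, lower at 744, 555 and 589 against 909, 718 and 731 CPM. The groups overlapped in both genes. Among the main pigment genes, Pmel, of melanosome fibrils, and Tyrp1, an enzyme of eumelanin synthesis, passed downward, with log2 fold changes of -0.36 ± 0.10 (adjusted p = 0.0129) and -0.17 ± 0.06 (adjusted p = 0.0478), and neither passed without the block. The dopachrome tautomerase and tyrosinase genes did not pass the test, with adjusted p-values of 0.0837 for Dct and 0.167 for Tyr and log2 fold changes of -0.14 ± 0.06 and 0.09 ± 0.05.

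Some genes of DNA methylation itself were lower by small amounts. Of 17 tested, none was called, 8 passed downward and 2 upward (3 and 0 without the block, 1 and 0 without the libraries of replicate 1), and the median was -0.09. Uhrf1, which guides DNMT1 to hemimethylated DNA, fell from 429, 506 and 428 to 321, 352 and 372 CPM (log2 fold change -0.38 ± 0.07, adjusted p = 0.000748) and Dnmt3a, a de novo methyltransferase, had a log2 fold change of -0.24 ± 0.06. The Uhrf1 groups did not overlap. Of 38 histone deacetylase and Polycomb genes, none was called, 3 passed upward and 9 downward (1 in each direction without the block), and the median was 0.00. Ezh2, the methyltransferase of Polycomb repressive complex 2, was lower and its homolog Ezh1 higher, with log2 fold changes of -0.32 ± 0.08 and 0.36 ± 0.07. Of 69 germline and imprinted genes listed, 12 reached the level for testing, Kcnq1ot1 was called up and H19 down, and 4 passed upward and 2 downward. Kcnq1ot1, a long noncoding RNA antisense to Kcnq1 whose reads are told from it only if strand was used in counting, was at 2.94, 2.67 and 5.03 CPM and 7.83, 6.896 and 7.85 CPM (log2 fold change 1.12 ± 0.18), without overlap. H19, another imprinted noncoding RNA, was at 1.702, 0.215 and 10.7 CPM and 0.228, 0.144 and 3.92 CPM (log2 fold change -1.65 ± 0.31). Its replicate 3 was high in both groups, which overlapped, and without the block the adjusted p was 0.549. The imprinted genes Mest and Igf2r were higher without overlap, at 55.3, 63.4 and 58.8 against 104, 108 and 94.98 CPM and at 225, 231 and 247 against 371, 374 and 332 CPM.

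The remaining lists were mixed, and neural and muscle genes were the exception with many rises. Of 74 cytosolic ribosomal protein genes, none was called and 14 passed downward, 2 without the block, with a median of -0.10. Of 83 respiratory chain genes, none was called, 7 passed upward and 4 downward (1 and 0 without the block), and the median was 0.02. Of 25 MYC network genes, none was called, 5 passed upward and 4 downward (1 in each direction without the block), and the median was 0.05, with Mxd3, an antagonist expressed in S phase, lower and Mxd4 higher (log2 fold changes -0.78 ± 0.09 and 0.53 ± 0.11). Of 28 Wnt and Notch genes, the ligand Jag1, the receptor Notch3, the target Hes1 and the glycosyltransferase Lfng of the Notch pathway were called up and none down, and 7 passed upward and 3 downward (4 and 1 without the block), with a median of 0.09. The adjusted p of Lfng was 0.0395, against 0.190 without the block and 0.118 without control replicate 1. Without combination replicate 3 it was 0.0044. Jag1 went from 14.2, 17.3 and 13.7 to 31.05, 46.5 and 28.3 CPM (log2 fold change 1.21 ± 0.11). Of 19 tubulin genes, Tubb4a was called up, and 4 passed upward and 5 downward (1 and 2 without the block), with a median of -0.10. Tubb4a was at 0.552, 0.645 and 0.7704 CPM in control, under the level for testing, and 2.05, 2.299 and 1.17 CPM with the combination. Tuba1a, at a far higher level, fell from 519, 553 and 432 to 329, 400.2 and 327 CPM (log2 fold change -0.51 ± 0.06). Tubulin genes are close copies, so reads could be split among them. Of 40 neural and muscle genes listed, 20 were tested. Members near silence in control were tested only if other libraries reached 1 CPM, so nothing is read from the share of rises. Of the 20, 8 were called up and Cck down, 11 passed upward and 2 downward (8 and 0 without the block), and the median was 0.60. Bcan, a brain chondroitin sulfate proteoglycan, went from 5.06, 4.13 and 4.93 to 26.99, 15.9 and 14.5 CPM (log2 fold change 2.00 ± 0.15) and cardiac troponin T, Tnnt2, from 0.552, 1.38 and 1.28 to 5.64, 9.05 and 3.502 CPM (2.49 ± 0.29).

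Outside the lists, the called genes with the smallest adjusted p-values included Fam212b, at 15.6, 22.1 and 16.2 CPM in control and 52.3, 62.97 and 39.3 CPM with the combination treatment, and the adenylate kinase Ak1, at 32.9, 57.2 and 41.4 and 100.2, 145 and 94.5 CPM. Serpinb9b, of a family of protease inhibitors with many close copies, was at 1.93, 7.36 and 2.41 and 6.01, 28.7 and 9.57 CPM. Fam212b and Ak1 separated the groups and Serpinb9b did not, since its replicate 2 was high in both. By difference in CPM, Malat1, a nuclear noncoding RNA, Maoa, monoamine oxidase A, and Mcam, a melanoma adhesion molecule, were among the leaders. Malat1 went from 93.2, 76.02 and 165 to 313, 211 and 264 CPM (log2 fold change 1.31 ± 0.15). Maoa went from 117, 126 and 115 to 240.04, 316 and 209.5 CPM (log2 fold change 1.08 ± 0.11). Mcam went from 149, 323 and 228 to 397, 672 and 387 CPM (log2 fold change 1.08 ± 0.10). In all 3 each combination library was above each control library. The tight junction gene Jam2 and the transmembrane gene Tmem179 rose by log2 fold changes of 2.09 ± 0.17 and 2.28 ± 0.23. Among falls, Enpp2, the secreted enzyme autotaxin that makes lysophosphatidic acid, was at 158, 71.2 and 121 CPM in control and 58.5, 19.8 and 57.2 CPM with the combination (log2 fold change -1.44 ± 0.14). Its groups did not overlap, with replicate 2 lowest in each. Without the block its adjusted p was 0.121. Map2k6, a kinase upstream of p38, fell from 13.8, 9.51 and 13.7 to 4.92, 2.78 and 7.56 CPM, also without overlap. Vldlr, a lipoprotein receptor, fell by a log2 fold change of -1.28 ± 0.19, and Prelid2 and Gm973 by -1.20 ± 0.20 and -1.32 ± 0.19. Lgals3, galectin 3, was at 78.2, 248 and 100.4 CPM in control and 228, 602 and 168 CPM with the combination, and without the block its adjusted p was 0.251.

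Promoters of the called genes were poorer in CpG than those of tested genes as a whole. The ratio of observed to expected CpG in the 300-base window had a median of 0.46 among 163 genes called up, 0.49 among 17 called down and 0.79 among 7477 tested genes, and it was below 0.5 in 52.76%, 52.94% and 14.47%. Among genes with a control mean under 10 CPM, which are CpG-poorer, the median was 0.44 for 126 called up and 0.66 for all 1575. Among genes passing at the adjusted p-value alone, the median was 0.72 for 1245 upward and 0.82 for 1107 downward. The ratio was below 0.5 in 24.26% and 9.67% of these. No test was made on this description. The AP-1 site TGANTCA was present in 12.88% of promoters called up and 4.13% of all.

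**Figure D5:**
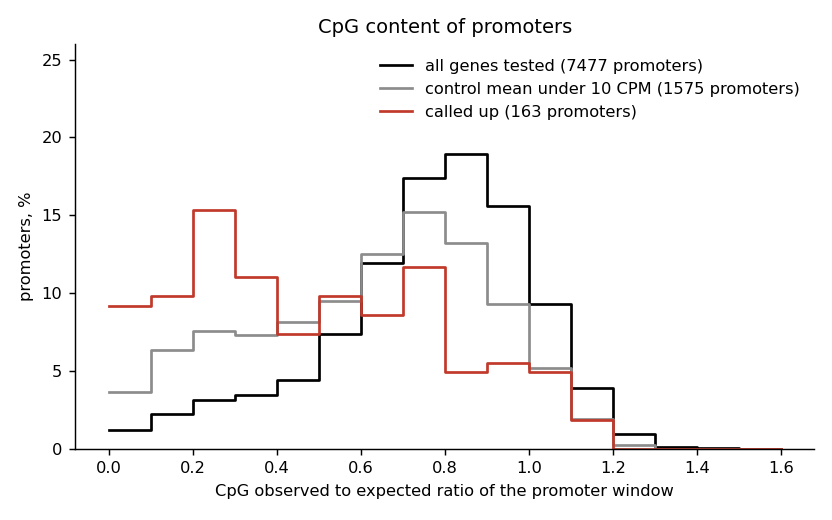
The share of promoters (vertical axis, %) is plotted by the ratio of observed to expected CpG in the 300-base window (horizontal axis, bins of 0.1) for all 7477 tested genes with a single promoter entry, the 1575 of them with a control mean under 10 CPM, and the 163 genes called up. The curve of genes called up lies to the left, with 52.76% below 0.5 against 14.47% of all.

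The single treatments were compared to the same control libraries, so their values are set side by side only. The median log2 fold change compared to control of the 271 genes called up was 1.32 with the combination, 0.98 with SFN and 0.54 with DAC. For cholesterol synthesis it was -0.72, -0.64 and -0.15, and for interferon-stimulated genes 0.48, -0.18 and 0.68. Compared to SFN directly, 13 genes were called (0.112%), all higher with the combination, with the doubt about the labelled SFN dose given above. At the adjusted p-value alone, 187 (1.61%). Without the block none was called. Among the 13, Cxcl10 had a mean of 22.99 ± 2.77 CPM with the combination and 11.1 ± 0.756 CPM with SFN (mean ± SD, n = 3), and Ifit1 39.2 ± 10.7 and 18.02 ± 3.02 CPM. The log2 fold changes over SFN were 1.05 (adjusted p = 0.00345) and 1.09 (adjusted p = 0.0272). Of the 50 interferon-stimulated genes, 18 passed upward against SFN (all genes, 0.937%) and none downward (0.670%), and none of the 26 cholesterol genes passed upward and 1 downward. Leaving out SFN replicate 3 reduced the 13 calls to 0, and combination replicate 1 or SFN replicate 1 to 1. Compared to DAC, 108 genes were called (0.928%), 85 higher (0.730%) and 23 lower (0.198%), and 9 were called without the block. Gsta3 was at 21.5 ± 6.21 CPM with the combination and 1.85 ± 0.6301 CPM with DAC, and Nqo1 at 36.9 ± 2.899 and 8.18 ± 2.48 CPM. Genes that differed from control by a call and from both single treatments at the adjusted p-value numbered 15. Of all 11638 genes tested, 122 differed from both single treatments. Among the 15 were Lif, Plk2, Tnfrsf10b, Btg2, Cxcl10, Ifit1, Ctsf, Tmem179, Ahnak, Usp2, 1700007K13Rik and 9230114K14Rik upward, and Pmvk and Gm10639 downward. The 15 depend on the comparison to SFN, whose calls were lost without the block or without SFN replicate 3. Compared to control, Gm10639 had an adjusted p of 0.404 without the block. Lif was at 13.4 ± 8.89 CPM with the combination, 8.63 ± 5.54 CPM with SFN and 3.89 ± 2.501 CPM with DAC. Plk2 was at 67.1 ± 12.5, 49.6 ± 14.6 and 43.3 ± 11.8 CPM. No gene passed a test of the interaction of DAC and SFN in edgeR at an adjusted p under 0.05 (0.00%), where 683 genes had an unadjusted p under 0.05 (5.87%). Compared to control, SFN alone gave 149 called genes (1.28%) and DAC alone 4 (0.0344%).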

How the data were processed

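RNA was sequenced from 12 libraries of B16F10 cells, 3 per group, and the labels call the replicates independent biological repeats. The authors deposited 1 file per library with raw read counts per gene, not normalized. The submitters' processing notes name FastQC 0.11.7, Trimmomatic 0.38, TopHat2 2.1.1, HTSeq and the mm10 build, and the study's methods state that only uniquely aligned reads were kept, which lowers counts of genes with close copies. The annotation and the strand setting of the counting are not given in the sources used here.

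Genes that reached 1 CPM in 3 or more libraries were tested in edgeR 4.0.16 (R 4.3.3, limma 3.58.1) with TMM normalization and the quasi-likelihood F-test. All 12 libraries entered 1 model with group and replicate number. The SE was taken from the F statistic as the absolute log2 fold change over its square root. Same-numbered control and combination libraries deviated together, with correlations over genes of 0.270, 0.531 and 0.454 in replicates 1, 2 and 3, so the numbers were taken to pair the libraries. Differences within pairs used a prior count of 2. P-values were adjusted by Benjamini and Hochberg over all genes tested. DESeq2 1.42.0 served as an alternative, beside no filter, at least 10 counts in every library, a robust fit, glmTreat, no block, and leaving out libraries or, chosen after seeing the data, all libraries of 1 replicate number. The scripts were tested on simulated data.

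The lists of genes and the genes themselves were chosen with earlier results of these data known. Named are the 12 largest rises and 10 largest falls among called genes of at least 5 CPM that moved the same way in all 3 pairs, the 10 called genes with the smallest adjusted p-values, the 10 with the largest difference in CPM, up to 4 members of each list with the smallest adjusted p-values and the called members of lists with 5 or fewer, genes that also differed from the single treatments, and regulators and markers. Other called list members are listed without values, and Aldh3a1 with its values, after they were seen. A few genes that meet these rules are not reported here. Promoter sequences are from RefSeq on GRCm38.p6, where 7477 of 11638 tested genes had exactly 1 entry. Plots were made in Python 3.11.15 (matplotlib 3.10.9).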

Additional observations from a re-analysis of the deposited data

Results flagged for a closer look

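In 3 gene lists, all 3 replicate pairs moved one way with a drug given alone and the other way with the same drug given on top of the other drug, by the median log2 difference of the list. The difference was not tested in any of them, and all of the medians are small. For cytosolic ribosomal proteins, the average of the 3 pair medians for SFN was 0.0573 without DAC and -0.1273 with DAC. For germline and imprinted genes, of which 12 were tested, it was -0.1366 without DAC and 0.1206 with DAC. For histone deacetylases and Polycomb genes it was 0.0265 for DAC without SFN and -0.0239 with SFN, and 0.0263 for SFN without DAC and -0.0273 with DAC.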

How the results depend on the processing

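The count of 310 genes called between DAC+SFN and control depended on the replicate block and on how the fold was tested. Without the block, 169 genes were called, and 1201 in place of 3683 passed at the adjusted p-value alone. The block also carried the comparison to SFN, with 0 called in place of 13, and that to DAC, with 9 in place of 108. Without it, 63 of the 178 named genes that passed no longer did, among them Abca12, Ankrd37, Cck, Ddx60, Hspb1, Insig1, Jam2, Kbtbd11, Lfng, Loxl2, Mcam, Mgarp, Nlrc5, Nppb, Oasl2, Prelid2, Scd1, Scd2 and Serpinb9b. A test against a fold of 2 itself (glmTreat) called 40 genes against control, 0 against SFN and 6 against DAC. With no filter on low counts 23 genes were called against SFN, and with a robust fit 8. With at least 10 counts in every library 70 were called against DAC.

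Leaving out 1 library moved the 310 calls to between 244 and 399, and leaving out all libraries of a replicate number to 208, 221 or 396. The 3683 genes at the adjusted p-value alone became 2333 to 4199, with the lowest counts without control replicate 2 (2333) and DAC+SFN replicate 1 (2388). Without all libraries of replicate 1 or 2 they became 1471 or 1762, and without those of replicate 3, 4033. The 13 calls against SFN ran from 0, without SFN replicate 3, to 26, without DAC+SFN replicate 3, with 1 without SFN replicate 1 or DAC+SFN replicate 1 and 4 without DAC+SFN replicate 2. The 108 calls against DAC ran from 61, without DAC+SFN replicate 1, to 165, without DAC+SFN replicate 3. The cause was not tested. No interaction was called without the block, with glmTreat, with other filters, with the robust fit, with DESeq2 or with any 1 library left out, and it was not fitted without all libraries of a replicate number. With DESeq2, 176 of the 178 named genes still had an adjusted p under 0.05. Genes under 10 CPM in both groups, 175 of the 271 called up, rest on few reads.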
